A study of Mus musculus with 9 samples.

Results

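The glucocorticoid response genes described here were the rows of the gene count table named *Nr3c1*, *Hsd11b1*, *Fkbp5*, *Tsc22d3*, *Sgk1*, *Zbtb16*, *Mt1* and *Mt2*, followed across 3 phases of weight loss. All 8 were found among the 56748 genes of the table, and 7 of them were among the 18510 genes that reached 0.5 CPM (reads per gene relative to the library total) in at least 1 library and were tested. *Mt2* did not reach that level and is given as read counts only.

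Glucocorticoids such as corticosterone enter cells and bind the glucocorticoid receptor, which leaves its chaperones, moves to the nucleus and binds DNA elements made of inverted repeats to switch genes on or off. In fat, these hormones act on lipolysis, on the formation of adipocytes and on inflammation, and the enzyme encoded by *Hsd11b1* makes active hormone from an inactive precursor inside the tissue itself. Of the other members, *Nr3c1* encodes the receptor, *Fkbp5*, *Tsc22d3*, *Sgk1* and *Zbtb16* are commonly used as targets of the receptor, and the metallothionein genes *Mt1* and *Mt2* respond to both glucocorticoids and metals.

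Epididymal adipose tissue of wild-type male C57BL/6J mice was sequenced in 9 libraries. The mice were 8 weeks old when high-fat diet (HFD) began. The 3 groups were mice after 8 weeks of HFD (Pre), mice given standard diet (SD) for 1 week after the HFD (WL1) and mice given SD for 2 weeks after it (WL2), with 3 libraries each, which makes them about 16, 17 and 18 weeks old. All 3 groups had received the HFD, and none of the 9 libraries came from mice kept on HFD to the age of WL1 or WL2 or fed SD throughout, so the change of diet and the passage of time cannot be told apart. The labels number the samples 1 to 3 within each phase without saying whether each came from 1 mouse, so p-values measure the spread between these samples, which may be technical. Glucocorticoid levels follow a daily rhythm, and none of the sources used here states the hour of tissue collection.

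The libraries held 16434450 to 22729072 reads counted on genes, and no 2 libraries of a phase agreed within sampling noise. All 12 adipocyte markers were detected in the tissue, with a summed level of 22724 to 41356 CPM, while 6 epididymis markers together stayed at or below 0.174 CPM. Some libraries stood apart in their cell markers. In WL1 replicate 3 the 14 macrophage markers summed to 9651 CPM, the highest of the 9 libraries, and the adipocyte markers to 22724 CPM, the lowest. In Pre replicate 2 the 8 T and B cell markers summed to 202 CPM, against 5.19 to 18.5 CPM in the other 8 libraries. The 9 mesothelium markers summed to 44.8 CPM in Pre replicate 1 and 52.3 CPM in WL1 replicate 2, and to 598 and 807 CPM in WL2 replicates 2 and 3. The 6 hepatocyte markers summed to 11.5, 53.0 and 91.8 CPM in the Pre libraries 1 to 3. They summed to 79.5, 3.08 and 10.4 CPM in the WL1 libraries 1 to 3, and to 4.05 to 6.89 CPM in the WL2 libraries.

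Sequences before the transcription start are shown for the members whose windows held a full glucocorticoid response element or several metal response elements. RefSeq promoter windows of 300 bases on GRCm38.p6 were found for 6 of the 8 members, with 13 start sites in all. *Nr3c1* and *Zbtb16* had no window. The full palindromic element was searched as AGAACA and TGTTCT separated by 3 bases, its looser core as GNACANNNTGTNC, which lies within the full element, and the metal response element as TGCGCNC or TGCACNC, each on both strands. The full element was found in 3 of 32851 mouse promoter windows (0.00913%), 1 of which was at the fifth of the 6 start sites listed for *Sgk1*. The 250 bases before that start, chr10:21993640-21993889 on the plus strand, are given with the element in capitals.
Sgk1: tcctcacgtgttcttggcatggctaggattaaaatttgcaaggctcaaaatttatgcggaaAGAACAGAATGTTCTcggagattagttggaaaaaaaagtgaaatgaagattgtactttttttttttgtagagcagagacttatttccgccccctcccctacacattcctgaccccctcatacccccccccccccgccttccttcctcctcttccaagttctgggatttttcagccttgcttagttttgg
The core was present in 156 windows (0.475%), which include those with the full element and also that of *Mt1*. The 250 bases before the start of *Mt1*, chr8:94178839-94179088 on the plus strand, carry in capitals first the core and then a metal response element.
Mt1: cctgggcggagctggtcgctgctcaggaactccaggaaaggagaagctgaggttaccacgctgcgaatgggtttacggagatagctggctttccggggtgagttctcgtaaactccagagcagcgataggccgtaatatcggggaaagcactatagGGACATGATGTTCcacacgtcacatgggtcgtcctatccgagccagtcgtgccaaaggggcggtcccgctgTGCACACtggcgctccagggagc
At least 1 metal response element was found in 25.7% of all windows and at least 2 in 7.11%, and the 300-base windows held 3 at *Mt1* and 4 at *Mt2*. The 250 bases before the start of *Mt2*, chr8:94172368-94172617 on the plus strand, contain 3 of them, in capitals.
Mt2: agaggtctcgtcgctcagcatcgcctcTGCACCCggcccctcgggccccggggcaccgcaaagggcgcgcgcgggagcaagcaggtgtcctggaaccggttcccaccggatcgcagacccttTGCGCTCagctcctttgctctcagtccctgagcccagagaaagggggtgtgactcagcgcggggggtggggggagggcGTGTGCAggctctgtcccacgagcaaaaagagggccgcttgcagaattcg
The windows of *Fkbp5*, *Tsc22d3* and *Hsd11b1* held neither the full element nor its core, which says only that these letters are not in these windows. A match is a description of the sequence and not a measured binding site.

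The members differed widely in level. On the scale of the authors' FPKM (fragments scaled by gene length and library size), *Mt1* was the highest with a mean of 148 FPKM over the 9 libraries, followed by *Tsc22d3* at 60.6, *Sgk1* at 26.0, *Hsd11b1* at 23.2, *Nr3c1* at 18.0, *Zbtb16* at 15.3, *Fkbp5* at 6.33 and *Mt2* at 0.288 FPKM. *Mt1* exceeded *Tsc22d3* and *Tsc22d3* exceeded *Sgk1* in all 9 libraries without overlap of their ranges, and *Fkbp5* exceeded *Mt2* in the same way. In the middle of the order the ranges overlapped. *Sgk1* was above *Hsd11b1* in 6 of 9 libraries, *Hsd11b1* above *Nr3c1* in 7, *Nr3c1* above *Zbtb16* in 7 and *Zbtb16* above *Fkbp5* in all 9. Among the tested genes, 98.6% had a lower mean FPKM than *Mt1*, 85.6% a lower one than the receptor gene *Nr3c1* and 66.1% a lower one than *Fkbp5*.

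After 1 week of SD, 2 of the 7 tested members rose against Pre, the kinase gene *Sgk1* (1.66-fold) and the activating enzyme *Hsd11b1* (2.06-fold). None of the 7 passed the threshold downward, and the 2 genes that rose were also the only members called by DESeq2. The call held in 5 of 20 other settings for *Hsd11b1* (adjusted p = 0.0492, edgeR) and in 15 of 20 for *Sgk1*. These 2 genes were the only members with an unadjusted p under 0.05 in edgeR's quasi-likelihood test, beside 4496 of all 18510 genes. In that comparison 7.29% of all 18510 genes passed the adjusted threshold of 0.05, 2.6% upward and 4.69% downward. The members' median log2 fold change was 0.08, beside 0.02 over all tested genes. The libraries of the phases did not overlap in 1 member, *Sgk1*, beside 28.7% of all genes.

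After 2 weeks of SD, only *Sgk1* among the 7 tested members passed the threshold against Pre, at 2.29-fold. All 7 had a fold change above 1 at WL2, beside 9416 of all 18510 genes. Their median log2 fold change was 0.42 beside 0.01 over all tested genes. The threshold was passed by 10% of all genes, 3.35% upward and 6.66% downward. Libraries of WL2 and Pre did not overlap in *Sgk1* and *Nr3c1*, 2 of 7 members, beside 30.9% of all genes. The same Pre libraries served both comparisons, so their fold changes are not independent.

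Between WL1 and WL2, edgeR's quasi-likelihood test called 0 of the 7 members, DESeq2 called 2 (*Fkbp5* and *Sgk1*) and limma on log2 FPKM called 0. At an unadjusted p under 0.05 in edgeR there were 4, beside 3960 of all 18510 genes. Of these 4 members, *Fkbp5*, *Sgk1* and *Zbtb16* were higher at WL2 and *Hsd11b1* lower. The adjusted threshold was passed by 3.68% of all genes, 1.31% upward and 2.37% downward. The members' median log2 fold change was 0.37 beside -0.001 over all genes. Libraries did not overlap in *Sgk1* and *Zbtb16*, beside 30.3% of all genes. Markers of several cell types moved with this comparison, where 9207 of all 18510 genes had a fold change above 1. Of 12 adipocyte markers edgeR called 3 higher and 1 lower, and 11 had a fold change above 1. It called 0 of 14 macrophage and 0 of 6 hepatocyte markers, of which 1 and 0 had a fold change above 1. Of 9 mesothelium markers edgeR called 0, and all 9 were higher at WL2 with an unadjusted p under 0.05. The mesothelium sums ran from 52.3 to 263 CPM at WL1 and from 286 to 807 CPM at WL2, with 44.8 to 443 CPM at Pre. No marker of these lists was at 0 reads in all libraries. The part of these cell markers in the members' values was not tested. Across the 3 phases together, the F test of the same fit was passed by *Sgk1* alone (adjusted p = 0.00292), beside 13.1% of all genes.

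**Figure D1:**
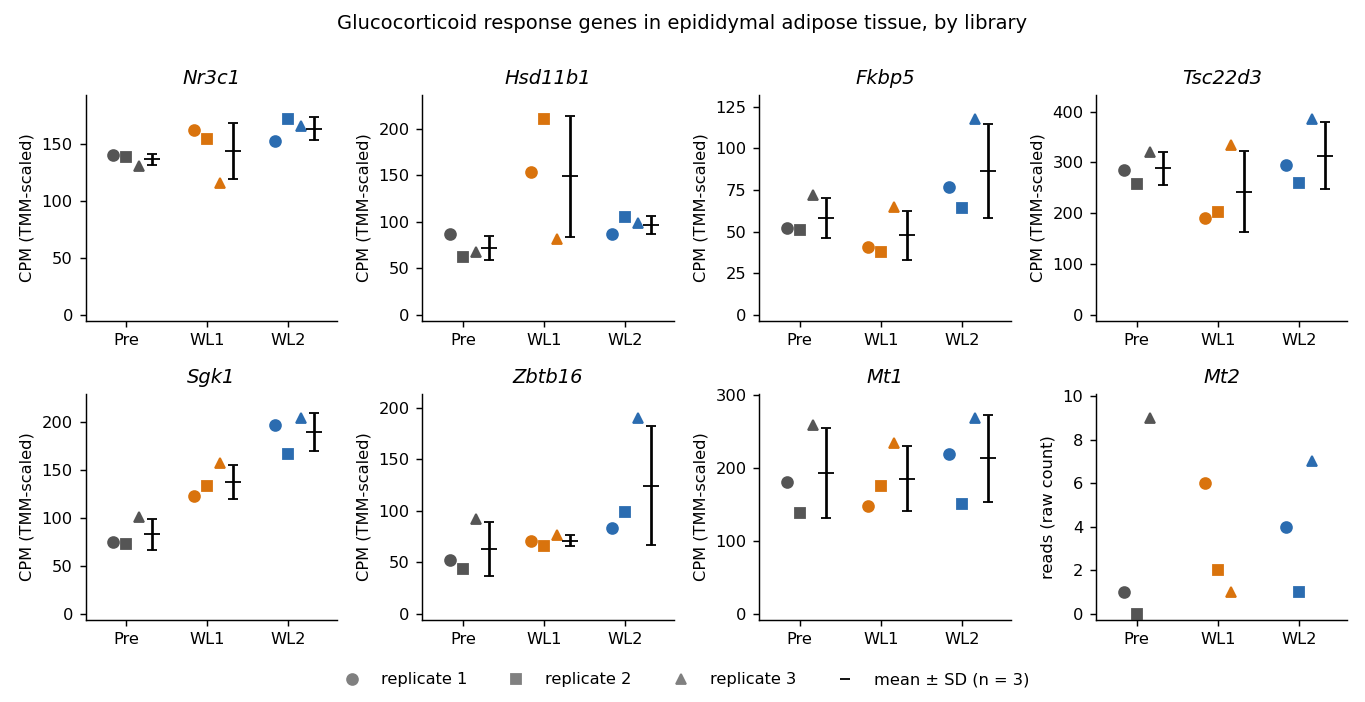
Level of each of the 8 genes in the 9 libraries, in CPM scaled by TMM factors (raw reads for *Mt2*), against the phase. Symbols mark the replicate number, and the black bar gives mean ± SD of 3 libraries. *Sgk1* steps up from 72.5 to 101 CPM at Pre to 167 to 204 CPM at WL2 without overlap.

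The receptor gene *Nr3c1* was measured at 140.0, 138 and 131 CPM in the Pre libraries 1 to 3, at 162, 154 and 116 CPM in WL1 and at 152, 172 and 165 CPM in WL2. The 3 WL2 libraries lay above the 3 Pre libraries, and WL1 replicate 3 was the lowest of all 9. The log2 fold change was 0.08 ± 0.13 (SE) at WL1 and 0.26 ± 0.13 at WL2, with adjusted p = 0.758 and 0.24 in edgeR's quasi-likelihood test. The 95% interval of the WL2 difference ran from -0.03 to 0.55 on the log2 scale.

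*Hsd11b1* was measured at 87.0, 62.2 and 67.2 CPM at Pre, at 153, 211 and 81.8 CPM at WL1 and at 86.6, 105 and 98.6 CPM at WL2. WL1 replicates 1 and 2 were above every library of the other phases, while WL1 replicate 3 lay within the Pre range, so the phases overlapped. The log2 fold change at WL1 was 1.05 ± 0.28 (adjusted p = 0.0492, edgeR). At WL2 it was 0.42 ± 0.28 against Pre (adjusted p = 0.362), and the step from WL1 to WL2 was -0.62 ± 0.28 (adjusted p = 0.228).

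The *Hsd11b1* call at WL1 held in 5 of 20 other settings, in which the adjusted p lay between 0.00231 and 0.144. It was lost without any of the other 8 libraries, and it remained only when WL1 replicate 3 was left out (log2 fold change 1.33, adjusted p = 0.00717). The lowest value, 0.71, came without WL1 replicate 2 (adjusted p = 0.144), and leaving out Pre replicate 1, 2 or 3 or WL1 replicate 1 gave 1.20, 0.95, 1.00 and 1.02 with adjusted p = 0.0769, 0.113, 0.106 and 0.113. Without WL2 replicates 1, 2 and 3, which are not part of the comparison but enter the estimate of the spread, the adjusted p was 0.055, 0.0735 and 0.0736. All of *Hsd11b1* (1:192903942-192946383 in the authors' table) lies within the span of *Lamb3* on the opposite strand, a gene with 124 to 857 reads per library against 1129 to 4595 for *Hsd11b1*. Whether reads were counted by strand is not stated in these sources.

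The cell markers moved at WL1 as well, where 4.69% of all genes fell and 2.6% rose against Pre. Of 12 adipocyte markers 4 fell and 0 rose against Pre, with sums of 32841 to 41356 CPM at Pre, 22724 to 30143 CPM at WL1 and 34112 to 36876 CPM at WL2. Of 14 macrophage markers 3 rose and 0 fell, with sums of 1672 to 3101 CPM at Pre, 4632.5 to 9651 CPM at WL1 and 1967.5 to 5065 CPM at WL2. No marker of either list was at 0 reads in all libraries. Their part in the values of *Hsd11b1* and the other members was not tested. In whole tissue, fewer cells of a type and less RNA per cell cannot be told apart.

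*Sgk1*, a serine/threonine kinase of salt transport and insulin signalling, was measured at 74.9, 72.5 and 101 CPM at Pre, at 123, 133 and 157 CPM at WL1 and at 197, 167 and 204 CPM at WL2. Each phase lay wholly above the one before it. The mean was 82.8 ± 15.8 CPM (SD, n = 3) at Pre, 138 ± 17.6 at WL1 and 189 ± 19.7 at WL2. The log2 fold change against Pre was 0.73 ± 0.15 at WL1 (adjusted p = 0.0213, edgeR's quasi-likelihood test) and 1.19 ± 0.16 at WL2 (adjusted p = 0.00109). From WL1 to WL2 it was 0.46 ± 0.15 (adjusted p = 0.115).

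The WL2 call of *Sgk1* held in 20 of 20 other settings, with log2 fold changes from 1.11 to 1.36. The WL1 call held in 15 of 20, with values from 0.62 to 0.90. It was lost without Pre replicate 1, Pre replicate 2, WL1 replicate 2 and WL1 replicate 3, where the log2 fold change was 0.66, 0.64, 0.76 and 0.62 and edgeR's adjusted p was 0.0782, 0.0547, 0.053 and 0.0845. It was also lost when all 3 libraries numbered 3 were left out (0.76, adjusted p = 0.0602), a setting chosen after the data were seen. The gene (10:21758083-21875802, plus strand in the authors' table) is the one whose window with the full element is shown above. Counts per gene do not tell which of its start sites was used, and the part of that element in these values was not tested.

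The genes whose log2 CPM followed *Sgk1* most closely over the 9 libraries, among 13049 protein-coding genes with a mean of at least 1 CPM, were *Anxa3* (Pearson r = 0.97) and *Ap5m1* (r = 0.969). *Anxa3*, a calcium-dependent phospholipid-binding protein, was between 104 and 124 CPM at Pre, between 136 and 155 CPM at WL1 and between 158 and 185 CPM at WL2. *Ap5m1*, a subunit of an adaptor complex, went from 16.2 to 18.0 CPM at Pre to at least 23.6 CPM at WL2. These libraries share their phases and their scaling, so the correlations describe a common order of phases.

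**Figure D2:**
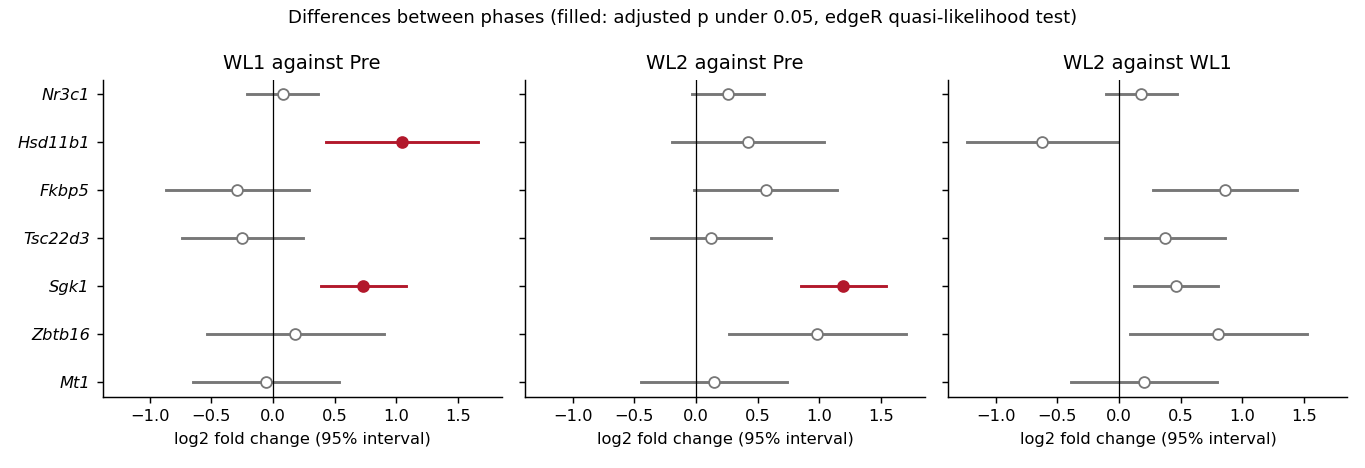
Log2 fold change with its 95% interval for the 7 tested members in the 3 comparisons, each panel with the same horizontal axis. Filled red points had an adjusted p under 0.05 in edgeR: *Hsd11b1* and *Sgk1* at WL1 against Pre, and *Sgk1* at WL2 against Pre.

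*Zbtb16*, a transcription factor of the zinc finger and BTB type that is induced during adipocyte formation, was measured at 52.0, 43.9 and 92.4 CPM at Pre, at 70.9, 66.2 and 76.5 CPM at WL1 and at 83.7, 99.0 and 190.2 CPM at WL2. Every WL2 library was above every WL1 library, while Pre replicate 3 reached into the WL2 range. The highest WL2 library exceeded the lowest by 2.27 times and the highest Pre library the lowest by 2.11 times. Against Pre, the log2 fold change of WL2 was 0.98 ± 0.33 (adjusted p = 0.0857 in edgeR's quasi-likelihood test), and at WL2 against WL1 it was 0.80 ± 0.32 (adjusted p = 0.184). The difference at WL2 against Pre was called in 6 of 20 other settings, among them DESeq2 (0.99, adjusted p = 0.0191), edgeR with no filter on low counts (0.98, adjusted p = 0.00926), edgeR with library totals (1.13, adjusted p = 0.0482) and edgeR without Pre replicate 3 (1.37, adjusted p = 0.0298). The remaining settings that called it were edgeR with the replicate number as a block and edgeR without the libraries numbered 3. The last of these was chosen after the data were seen. Without WL2 replicate 3 the log2 fold change was 0.54 (adjusted p = 0.297, edgeR). At WL1 against Pre it was 0.18 ± 0.32 (adjusted p = 0.774).

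*Fkbp5*, a co-chaperone that lowers the receptor's affinity for hormone and so closes a feedback loop, was measured at 52.2, 50.6 and 71.9 CPM at Pre, at 40.8, 37.6 and 64.5 CPM at WL1 and at 76.8, 64.2 and 118 CPM at WL2. WL1 replicates 1 and 2 were the lowest of the 9 libraries and WL2 replicates 3 and 1 the highest, and the phases overlapped in each comparison. The step from WL1 to WL2 was 0.86 ± 0.26 on the log2 scale (adjusted p = 0.0934, edgeR), a 1.81-fold difference. It was called in 3 of 20 other settings. These were DESeq2 (0.87, adjusted p = 0.0195), edgeR with no filter on low counts (0.85, adjusted p = 0.011) and edgeR with the replicate number as a block. Against Pre the log2 fold change was -0.29 ± 0.26 at WL1 (adjusted p = 0.532) and 0.57 ± 0.26 at WL2 (adjusted p = 0.202). The WL2 difference was called in 1 of 20 other settings, edgeR with the replicate number as a block. It was 0.28 without WL2 replicate 3 (adjusted p = 0.561, edgeR).

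*Tsc22d3*, which encodes the leucine zipper protein GILZ and dampens inflammatory signalling, was measured at 286, 257 and 321 CPM at Pre, at 191, 203 and 334 CPM at WL1 and at 295, 259.9 and 386 CPM at WL2. WL1 replicates 1 and 2 were the lowest of the 9 libraries, while WL1 replicate 3 was the second highest, after WL2 replicate 3. The log2 fold change was -0.25 ± 0.22 at WL1 and 0.12 ± 0.22 at WL2 against Pre (adjusted p = 0.525 and 0.762, edgeR), and 0.37 ± 0.22 from WL1 to WL2 (adjusted p = 0.375).

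*Mt1*, a small cysteine-rich protein that binds zinc and copper, was measured at 181, 138 and 259.8 CPM at Pre, at 148, 175 and 234 CPM at WL1 and at 219, 151 and 269 CPM at WL2. The 3 phases covered nearly the same range. The log2 fold change against Pre was -0.06 ± 0.27 at WL1 and 0.14 ± 0.27 at WL2 (adjusted p = 0.925 and 0.769, edgeR). The 95% interval at WL2 ran from -0.45 to 0.74 on the log2 scale, so a fall and a rise within it are both possible with this spread.

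*Mt2*, the neighbour of *Mt1* on chromosome 8 and a protein of the same family, had 1, 0 and 9 reads in the Pre libraries, 6, 2 and 1 in WL1 and 4, 1 and 7 in WL2, a total of 31 reads against 33234 for *Mt1*. The 0 in Pre replicate 2 allows up to 3 reads, or 0.156 CPM, by counting error alone. By the coordinates the authors give, *Mt2* (8:94899292-94900196) shares 749 of its 905 bases, or 82.8%, with *Gm45774*, a long noncoding RNA gene on the opposite strand with 1 to 23 reads per library. Without strand, reads of both genes cannot be told apart, and the part of this overlap in the low count was not tested. Nothing can be said from these counts about a change of *Mt2*.

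Within the phases, *Fkbp5*, *Tsc22d3*, *Sgk1*, *Zbtb16* and *Mt1* were each highest in the library numbered 3 at Pre, at WL1 and at WL2. These were 5 of the 7 tested members, beside 3.88% of all tested genes. No member was highest in the library numbered 1 or the library numbered 2 in all phases, beside 2.69% and 3.14% of all genes. The pattern was seen in the data and has no test, and the labels do not tie the samples of 1 number to each other.

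Expressed as the deviation of a library's log2 CPM from the mean of its phase, replicate 3 stood at 0.32, 0.48 and 0.50 for *Fkbp5* at Pre, WL1 and WL2, and at 0.63, 0.11 and 0.71 for *Zbtb16*. For *Tsc22d3* these deviations were 0.16, 0.51 and 0.32, for *Sgk1* 0.30, 0.20 and 0.11, and for *Mt1* 0.48, 0.36 and 0.38. The receptor and its activating enzyme went the other way in WL1 replicate 3, with -0.30 for *Nr3c1* and -0.76 for *Hsd11b1*. In replicate 3 of Pre and WL2, *Nr3c1* stood at -0.06 and 0.02 and *Hsd11b1* at -0.09 and 0.03.

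Over the 9 libraries, the deviations of the 5 genes correlated pairwise with Pearson r between 0.606 (*Tsc22d3* and *Zbtb16*) and 0.948 (*Sgk1* and *Mt1*), and *Fkbp5* and *Tsc22d3* gave 0.942. *Nr3c1* and *Hsd11b1* correlated with each other (r = 0.853). Against those 5 genes both had negative values, from -0.0774 to -0.66 for *Hsd11b1* and from -0.116 to -0.802 for *Nr3c1*. These points share library, depth and scaling, and deviations from a mean of 3 are not independent of each other. The 5 genes were grouped because each was highest in the libraries numbered 3, so high correlations among them follow in part from that choice.

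**Figure D3:**
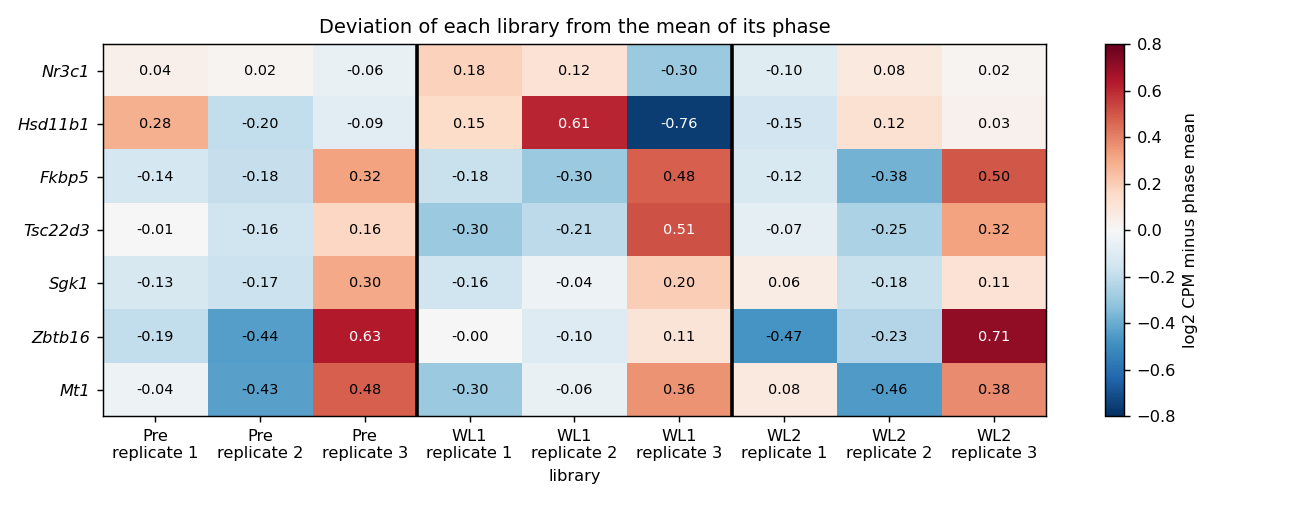
Log2 CPM of each library minus the mean of its phase, for the 7 tested members (rows) and the 9 libraries (columns, with phases set apart by lines). Red is above and blue below the mean of the phase. The columns numbered 3 are red for *Fkbp5*, *Tsc22d3*, *Sgk1*, *Zbtb16* and *Mt1* in every phase.

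The libraries numbered 3 had no common depth: they held 22729072 reads at Pre, the most of all, 17913549 at WL1 and 16434450 at WL2, the fewest. Macrophage markers in them summed to 2745, 9651 and 2088 CPM, of which the value at WL1 was the highest of its phase and the others were not. The fibroblast and progenitor markers summed to 2515, 2493 and 2731 CPM, in each phase above the other 2 libraries, and 3 of their 10 genes were highest in the library numbered 3 in every phase. Of 14 clock genes 2 had that pattern, and of 17 immediate early genes none did, beside 3.88% of all tested genes. The part of any of these in the members' values was not tested.

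Of 24 other genes commonly induced by glucocorticoids, 8 were also highest in the library numbered 3 in all 3 phases, beside 3.88% of all tested genes. They were *Klf9*, *Cebpd*, *Dusp1*, *Errfi1*, *Lcn2*, *Cdkn1a*, *Map3k6* and *Foxo3*, named after their values were seen. None of the 24 had that pattern for number 1 or number 2, beside 2.69% and 3.14% of all genes.

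Between phases, the same 24 genes moved in both directions. At WL1 against Pre, 3 rose and 2 fell, with a median log2 fold change of 0.08, beside 2.6% of all genes that rose and 4.69% that fell. The 3 that rose were *Pdk4*, which encodes a kinase that limits the entry of glucose carbon into the citric acid cycle (1.69 ± 0.25, adjusted p = 0.00453, edgeR's quasi-likelihood test), *Fbxo32*, a muscle ubiquitin ligase (1.25 ± 0.33), and *Dusp1*, a MAP kinase phosphatase (0.93 ± 0.17). *Lcn2*, a secreted lipocalin, fell by 0.93 on the log2 scale (SE 0.25, adjusted p = 0.0492), and *Klf15*, a transcription factor of amino acid and lipid metabolism, fell by 0.69 (SE 0.16, adjusted p = 0.0292). *Pdk4* was measured at 74.7, 64.1 and 103 CPM at Pre, at 201, 246 and 332 CPM at WL1 and at 261, 149 and 212 CPM at WL2, and every library on SD was above every Pre library. *Klf15* stood at 79.7, 60.7 and 53.8 CPM at Pre, at 37.8, 38.2 and 44.6 CPM at WL1 and at 69.4, 85.1 and 87.0 CPM at WL2, with WL1 the lowest phase without overlap.

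At WL2 against Pre, 5 of the 24 rose and 0 fell, beside 3.35% and 6.66% of all genes. A fold change above 1 was seen in 20 of them, beside 9416 of all 18510 genes. DESeq2 also called no fall in this list. The median log2 fold change was 0.28. *Pdk4* (1.36 ± 0.25, adjusted p = 0.00794), the sulfotransferase *Sult1a1* (0.93 ± 0.17, adjusted p = 0.00725) and the adipogenic factor *Cebpd* (0.89 ± 0.20, adjusted p = 0.0204) had the highest values, and *Klf9* (0.71) and *Nfkbia* (0.50), named after their values were seen, made up the rest. *Klf9*, a transcription factor and receptor target in many tissues, was measured at 102, 89.0 and 121 CPM at Pre, at 114, 109.7 and 145 CPM at WL1 and at 158, 153 and 199 CPM at WL2. Its WL2 libraries lay above all others.

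At WL2 against WL1, 4 of the 24 rose by edgeR's quasi-likelihood test, beside 1.31% of all genes, with a median of 0.29. They were *Klf15* (1.00 ± 0.16, adjusted p = 0.0124), *Cebpd* (0.98 ± 0.20, adjusted p = 0.0313), *Sult1a1* (0.75 ± 0.17, adjusted p = 0.0391) and *Nfkbia* (0.53 ± 0.11, adjusted p = 0.0306), the last named after its values were seen. The calls moved with single libraries. Counted with the hormone supply and zinc lists, the 4 calls at WL2 against WL1 became 0 without WL1 replicate 2, WL2 replicate 2 or WL2 replicate 3, 1 without WL1 replicate 3, 2 without WL1 replicate 1 and 8 without WL2 replicate 1. The 6 calls at WL1 against Pre became 2 without Pre replicate 1 or WL1 replicate 3 and 3 without Pre replicate 2, WL1 replicate 1, WL1 replicate 2 or WL2 replicate 2. The 5 calls at WL2 against Pre became 3 without Pre replicate 1 and 2 without WL2 replicate 3. Calls over all genes moved in the same settings, from 681 to 176, 37 and 101 at WL2 against WL1 without WL1 replicate 2, WL2 replicate 2 and WL2 replicate 3, from 1350 to 562 and 512 at WL1 without Pre replicate 1 and WL1 replicate 3, and from 1853 to 1387 and 966 at WL2 without Pre replicate 1 and WL2 replicate 3.

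**Figure D4:**
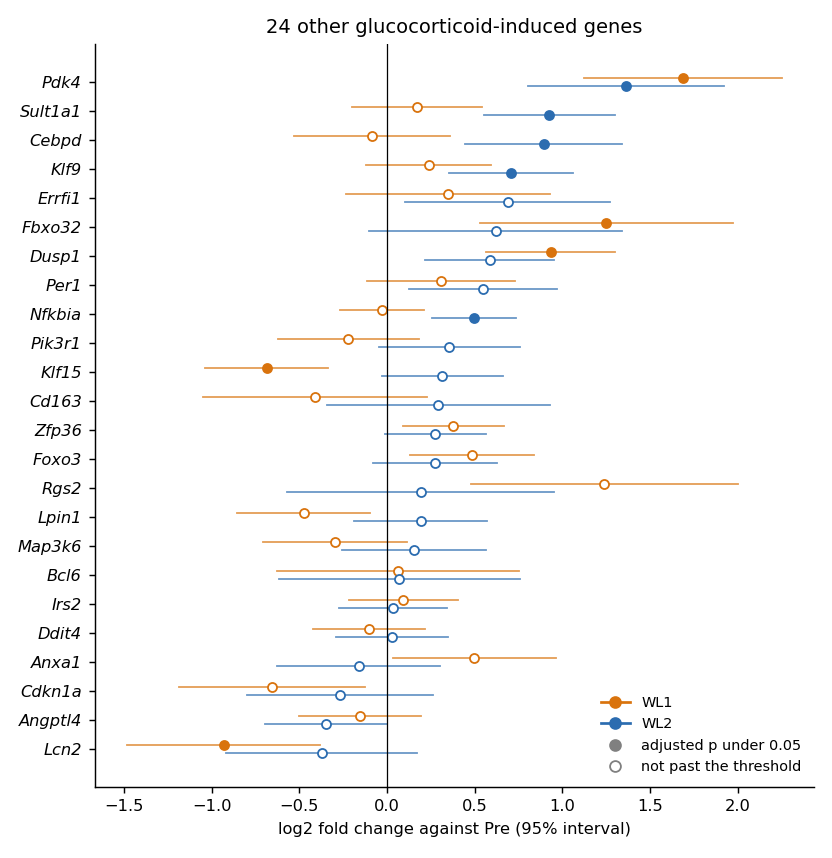
Log2 fold change against Pre with its 95% interval for 24 other glucocorticoid-induced genes at WL1 (orange) and WL2 (blue), sorted by the value at WL2. Filled points had an adjusted p under 0.05 in edgeR. Both comparisons use the same Pre libraries. *Pdk4* is the one gene filled in both.

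Genes that supply the hormone and hold the receptor formed a list of 15. In this list, which held the mineralocorticoid receptor gene *Nr3c2*, the inactivating enzyme *Hsd11b2*, the NADPH source *H6pd*, heat shock proteins and co-chaperones such as *Hsp90aa1*, *Hsp90ab1*, *Ptges3* and *Fkbp4*, and the coactivators *Ncoa1* and *Ncoa2*, edgeR's quasi-likelihood test called 0 genes in all 3 comparisons. Of all 18510 genes, 7.29% passed at WL1 against Pre, 10% at WL2 against Pre and 3.68% at WL2 against WL1. At an unadjusted p under 0.05 there were 2 at WL1 against Pre, 2 at WL2 against Pre and 0 at WL2 against WL1. Over all genes, 4496, 4806 and 3960 reached that p in these comparisons. DESeq2 and both limma fits called 1, *Ptges3*, at WL2 against Pre, as did edgeR with library totals, with upper quartile factors and without Pre replicate 3. The median log2 fold change was 0.13 in both comparisons with Pre, beside 0.02 at WL1 and 0.01 at WL2 over all tested genes.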

How the data were processed

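Total RNA of epididymal adipose tissue was purified on a column kit and sequenced by a company, with 3 libraries for each of Pre, WL1 and WL2. The authors deposited 1 table with whole-number counts per gene, without normalization, and the FPKM of the same libraries, which they scaled by gene length and library. The submitters' processing notes name HISAT2, HISAT, TopHat2, CASAVA and the builds GRCm38 and mm10, without versions or roles. The sources used here name neither the counting program nor its strand setting. The coordinates in the table equal those of GENCODE M21 (GRCm38) for 1435 of 52073 genes and for 0 of the 8 members, so gene positions are printed as deposited, with no build named. Reads that cannot be assigned to 1 of 2 overlapping genes can be lost or shared in such counts. No column of the table went unmatched to a sample.

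Genes reaching 0.5 CPM in 1 or more libraries were tested with edgeR 4.0.16 in R 4.3.3. A quasi-likelihood model (glmQLFit, glmQLFTest) without covariates was fitted to all 9 libraries with TMM factors, with Benjamini-Hochberg adjustment over 18510 genes and a threshold of 0.05. Log2 CPM used a prior count of 4. FPKM served for levels between genes and for limma 3.58.1. With 16434450 reads or more per library, 0.5 CPM is a handful of reads, and among the members counting error is wide only for *Mt2*. It is wide too for genes of the other lists near 0 reads, such as *Mt3* at 0 to 3.63 CPM. The model was also run on counts simulated without batch or cell-mix differences, which cannot show how it behaves where libraries differ in these. Results were recomputed with DESeq2 1.42.0, with 3 other scalings, without a filter or with 0.5 CPM required in 3 libraries, with the replicate number as a block, on the compared phases alone, by limma on log2(FPKM + 1) or log2(FPKM + 0.1), and without each library in turn. A fit without the libraries numbered 3 was added after the data were seen.

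The members and all lists, which were written from general knowledge, were chosen with earlier results of these data known. Named are all 8 members, the genes of the other lists past the threshold (at most 3 each way in a comparison, with others marked as named after their values were seen) and the 2 genes most correlated with a member that passed the F test. Promoter windows came from RefSeq on GRCm38.p6.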

Additional observations from a re-analysis of the deposited data

How the results depend on the processing

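Of 420 fold changes of single members under alternative settings, 379 kept their direction and their side of the threshold, 20 lost and 12 gained significance and 9 changed sign. The counts of members are small, so 1 gene moves them. At WL1 against Pre, 2 members were called, and 1 was called with RLE factors, upper quartile factors, both limma fits, the compared phases alone and the replicate block, and 0 with only the libraries numbered 1 and 2. At WL2 against Pre, 1 was called, and 2 with no filter, DESeq2, library totals without TMM factors and only the libraries numbered 1 and 2. At WL2 against WL1, 0 were called, and 2 with no filter and with DESeq2. Among the 3 phases, 1 was called, and 4 with no filter and with DESeq2 and 2 with library totals. Leaving out 1 library gave 0 to 1, 1 to 2, 0 to 0 and 1 to 2 members in these comparisons. Of the other listed genes, 6 at WL1 became 3 in both limma fits, 5 at WL2 became 8 with no filter and with library totals, and 4 between WL1 and WL2 became 11 with no filter and 10 with DESeq2. With only the libraries numbered 1 and 2 they numbered 2, 2 and 0, and leaving out 1 library gave 2 to 7, 2 to 7 and 0 to 8. The causes of these differences were not tested.

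Over all tested genes, same-numbered libraries of different phases deviated from their phase means with correlations from -0.277 to 0.107. These correlations cannot tell whether such libraries share a day or batch that acted on fewer genes. With the replicate block, 1, 3 and 1 members passed in the comparisons WL1 against Pre, WL2 against Pre and WL2 against WL1, and 3 among the phases, with 844, 1399, 330 and 1560 of all 18510 genes (1350, 1853, 681 and 2417 without the block). *Fkbp5* and *Zbtb16* passed at WL2 against Pre (both adjusted p = 0.0244), *Fkbp5* at WL2 against WL1 (0.0182), and *Hsd11b1* did not at WL1 (0.0834). Other listed genes numbered 4, 8 and 2. For the replicate number itself edgeR called 0 genes, with 566 at an unadjusted p under 0.05.

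The log2 fold changes that changed sign were all far from the threshold. Without 1 library, *Nr3c1* at WL1 ran from -0.015 (without WL1 replicate 1) to 0.20, *Zbtb16* at WL1 from -0.024 (without Pre replicate 2) to 0.57, and *Tsc22d3* at WL2 from -0.054 (without WL2 replicate 3) to 0.24. *Mt1* ran at WL1 from -0.27 to 0.22 (without Pre replicate 3, and 0.083 without WL1 replicate 1), at WL2 from -0.058 (without WL2 replicate 3, and -0.048 without Pre replicate 2) to 0.42, and from WL1 to WL2 from -0.0027 (without WL2 replicate 3) to 0.42. With library totals, *Mt1* at WL1 was 0.038. Library totals without TMM factors moved the median of all genes to 0.12 at WL1 and 0.16 at WL2 against Pre and the calls from 482 higher and 868 lower to 1003 and 642 at WL1, and from 620 and 1233 to 1495 and 835 at WL2. Over all settings the genes called ranged from 179 to 2344, from 530 to 2717 and from 10 to 1935 in the 3 comparisons.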

Other observations

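Of 9 tested genes of zinc and metal response, a list that includes the metallothionein *Mt3*, 1 rose at WL1 against Pre, beside 2.6% of all genes. It was the zinc importer *Slc39a10* (log2 fold change 0.73 ± 0.18, adjusted p = 0.0393, edgeR's quasi-likelihood test). *Slc39a10* was measured at 31.8, 34.7 and 38.4 CPM at Pre, at 56.3, 48.2 and 69.8 CPM at WL1 and at 49.7, 33.5 and 34.0 CPM at WL2. At WL2 against Pre edgeR and DESeq2 called 0 of the 9. An unadjusted p under 0.05 in edgeR was reached by 2, beside 4806 of all 18510 genes. At WL2 against WL1 edgeR called 0, and DESeq2 called *Slc39a10* and *Hmox1*. In that comparison 3 had an unadjusted p under 0.05 in edgeR, beside 3960 of all genes.

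Of 17 immediate early genes, edgeR called 2 higher at WL1 against Pre, beside 2.6% of all genes, and 1 at WL2 against Pre, beside 3.35%. They were *Atf3* (1.92 ± 0.46, adjusted p = 0.0339) and *Fos* (1.50 ± 0.35, adjusted p = 0.0309) at WL1, and *Klf4* (0.75 ± 0.14, adjusted p = 0.0092) at WL2. *Fos* was measured at 28.3, 37.9 and 63.1 CPM at Pre, at 113, 89.6 and 164 CPM at WL1 and at 61.3, 27.9 and 48.5 CPM at WL2. Of 14 clock genes, *Nr1d2* rose at WL1 (0.70 ± 0.16, adjusted p = 0.0264, edgeR) and at WL2 (0.62 ± 0.16, adjusted p = 0.0331). *Per2* rose at WL2 (0.88 ± 0.21, adjusted p = 0.0258, edgeR). A fold change above 1 at WL2 against Pre was seen in 6 of the 14, beside 9416 of all 18510 genes. *Per2* is itself a known target of the glucocorticoid receptor. The part of the hour of collection in these values was not tested.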
